A study of Mus musculus with 8 samples.

Results

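CD40 and CD83 were followed as RNA and as surface protein in the same single cells of the mouse thymic stroma. They were taken by name, as 2 of the 55487 genes in the RNA count table (Cd40 and Cd83) and as 2 of the 27 tags in the antibody count table (CD40 and CD83). CD40 is a receptor of the TNF receptor superfamily that binds CD40 ligand on activated T cells and signals through TRAF adaptors to canonical and non-canonical NF-κB; in the thymic medulla it acts beside RANK and the lymphotoxin β receptor in the growth and maturation of medullary thymic epithelial cells (mTEC). CD83 is a transmembrane protein of the immunoglobulin superfamily, best known from mature dendritic cells, that keeps MHC class II and CD86 at the surface by opposing the ubiquitin ligase March8. In cortical thymic epithelial cells (cTEC), which present peptides to CD4+CD8+ thymocytes, CD83 is needed for normal selection of CD4+ T cells.

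In CITE-seq, antibodies that carry a DNA barcode are counted with the RNA of each cell, so that each cell has a transcriptome and a set of tag counts. Thymi of C57BL/6 mice were pooled at 1 week of age (6 thymi) and at 16 weeks (3 thymi), depleted of CD45+ cells, stained with 26 antibodies and the lectin UEA1, and sorted into EpCAM1+ and EpCAM1− cells without CD45 or Ter119. Each pool was loaded on 2 wells, which gave 2 RNA libraries and 2 tag libraries per age, called replicates 1 and 2. The wells of an age therefore share their animals, each age is 1 pool, age cannot be told apart from pool, staining and library, and no difference between the ages was tested. The RNA libraries held 1846 and 1430 cells at 1 week and 1939 and 4738 cells at 16 weeks, with a median of 6668.5 to 8690.5 RNA molecules (unique molecular identifiers, UMIs) and 1384.5 to 3128.5 tag counts per cell, and 15 cell barcodes occurred in more than 1 library.

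The 2 tags were read by the following barcodes, shown because every protein value in the text is a count of one of them.
CD40: atttgtatgctggag
CD83: tctcaggcttcctag
These barcodes of 15 bases differed from each other at 12 positions and from any of the other tags at 8 or more. The genes lay on chr2:165055627-165072948 (Cd40, ENSMUSG00000017652) and chr13:43784775-43803132 (Cd83, ENSMUSG00000015396), both on the plus strand of GRCm38 and both protein-coding. Over all cells there were 276401 CD40 counts and 9568 CD83 counts, 0.672% and 0.0233% of the tag total, whereas MHCII and UEA1 together made up 80.0%. Hence 75.4% of cells had no CD83 count and 16.5% had no CD40 count.

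Cell classes were made from RNA without Cd40 or Cd83, and a name ending in "-like" rests on marker genes. Of 6234 classified TEC, 1972 were cTEC-like (clusters 4, 5, 6 and 8), 1715 intertypical TEC-like and 1068 mature mTEC-like (cluster 1, the Aire-type cells). Another 813 cells of cluster 2 stayed unnamed, 346 were proliferating (clusters 10 and 14), 196 were microfold-like with markers of other types, and 124 were tuft-like. Cluster 5 was the cTEC cluster led by Tbata and Ccl25, cluster 6 was led by Chga and Pth and was the shallowest at a median of 2872 UMIs, cluster 4 was led by haemoglobin genes, and cluster 8 was led by Gm4841 and Ramp3. At 16 weeks only replicate 2 held 20 or more cells of clusters 5 and 8. Fibroblast-like cells (2159) served as the comparison cells for both genes and both tags, and whether they lack CD40 was not tested.

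Cd40 RNA was highest in mature mTEC-like cells and in the proliferating cluster 10, and the wells of both ages gave the same picture. In mature mTEC-like cells the level was 155 and 187 CPM (UMIs of the gene per 1000000 UMIs) at 1 week and 174 and 180 CPM at 16 weeks. Cluster 10 gave 218, 138, 172 and 151 CPM in the same order. These 2 groups stood above every other TEC cluster at both ages, and at 1 week their wells overlapped. The intertypical TEC-like cells gave 57.9 and 60.3 CPM at 1 week and 26.4 and 30.6 CPM at 16 weeks, and cTEC-like cells 46.4 and 45.7 CPM at 1 week and 19.7 and 39.5 CPM at 16 weeks. Microfold-like cells, with enough cells at 16 weeks alone, gave 30.3 and 47.6 CPM. At 1 week intertypical TEC-like cells thus came next in order, and at 16 weeks the wells of these 3 classes overlapped. Fibroblast-like cells lay between 12.3 and 15.8 CPM in the 4 libraries, and the unnamed cluster 2 did not stand above that range in replicate 1 of 16 weeks (13.8 CPM, exact 95% Poisson interval 9.88 to 18.8). Fibroblast-like cells had 56, 46, 98 and 209 Cd40 UMIs beside 3575, 3648, 6253 and 13442 of Cd74, an MHC class II chaperone gene. Mature mTEC-like cells had 153, 147, 489 and 1121 beside 18107, 13314, 51787 and 97451. How much of the Cd40 of fibroblast-like cells was their own was not tested. When each cell was thinned to 2000 UMIs, the fewest in any cell, 23.1, 20, 23.6 and 21.8% of mature mTEC-like cells had a Cd40 UMI, against 2.24 to 4.34% of fibroblast-like cells. Before thinning the share over the 4 libraries was 50.2%. On the log2 scale, Cd40 RNA of cTEC-like minus mature mTEC-like cells was -2.28 ± 0.61 (SD, n = 4 libraries) and negative in all 4.

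**Figure D1:**
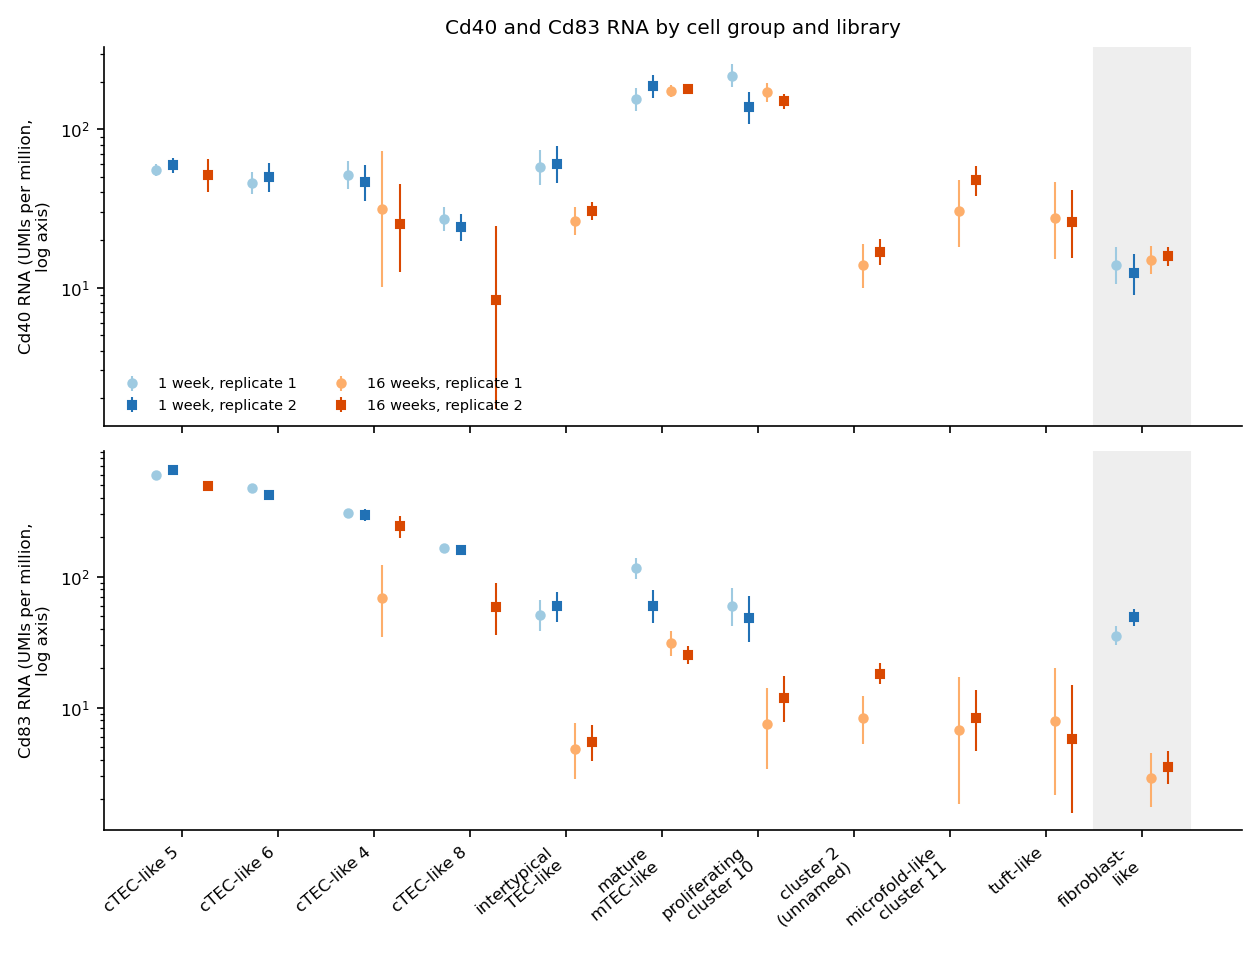
Cd40 (upper panel) and Cd83 (lower panel) RNA in CPM on log axes, for TEC clusters and classes with at least 20 cells in a library and for fibroblast-like cells (grey). Points are libraries and bars are exact 95% Poisson intervals, which cover counting error only. Cd40 is highest in mature mTEC-like cells and cluster 10, and Cd83 is highest in the cTEC-like clusters.

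Cd83 RNA was a cTEC transcript and was graded among the cTEC clusters. cTEC-like cells held 442 and 431 CPM at 1 week and 200 and 370 CPM at 16 weeks, and 40.5, 40.8, 24.6 and 38.2% of them had a Cd83 UMI at 2000 UMIs. Cluster 5 had 598 and 650 CPM at 1 week and 493 CPM in the only 16-week library with enough of these cells. Cluster 6 had 472 and 419 CPM, cluster 4 had 305 and 295 CPM, and cluster 8 had 164 and 160 CPM, all at 1 week. The wells of 1 week did not overlap between any neighbours in this order. At 16 weeks the wells of cluster 4 were far apart (68.9 CPM from 11 UMIs in 26 cells, and 242 CPM in 58 cells). Cd83 RNA of cTEC-like minus mature mTEC-like cells was 2.84 ± 0.80 (log2, SD, n = 4 libraries), positive in all 4, with values from 1.94 to 3.87. The wells of each age come from 1 pool, so that neither this spread nor that of Cd40 is one between animals.

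Outside the cortex the Cd83 UMIs had to be read against free RNA, which brings UMIs of one cell type into droplets of another. Fibroblast-like cells had 35.5 and 49.2 Cd83 CPM at 1 week and 2.89 and 3.54 CPM at 16 weeks, and 9.18 and 7.65% of them had a Cd83 UMI at 2000 UMIs at 1 week. Intertypical TEC-like cells were close to these levels (51.5 and 59.3 CPM at 1 week, 4.86 and 5.46 CPM at 16 weeks), and mature mTEC-like cells had 115 and 59.8 CPM at 1 week and 31.0 and 25.3 CPM at 16 weeks. Because 1 source of free RNA keeps its genes in a fixed ratio, Cd83 was set against Prss16, a thymus-specific serine protease of cTEC. At 1 week there were 11.7 and 12.04 Cd83 UMIs per 100 Prss16 UMIs in cTEC-like cells, 11.3 and 12.2 in fibroblast-like cells and 13.9 (95% interval 11.4 to 17.0) and 11.3 (8.15 to 15.3) in mature mTEC-like cells. The intervals of mature mTEC-like and fibroblast-like cells overlapped in both wells, and no excess of Cd83 was detectable in the former at this age. At 16 weeks mature mTEC-like cells had 41.4 (95% interval 31.9 to 53.4) and 31.9 (26.5 to 38.3) Cd83 UMIs per 100 Prss16 UMIs. Fibroblast-like cells of the same libraries had 10.9 (6.42 to 17.6) and 10.9 (7.86 to 14.7), and the intervals did not overlap in either library. cTEC-like cells gave 6.75 and 7.76 at this age. Against Psmb11, the cTEC proteasome subunit, there were 87 Cd83 to 65 Psmb11 UMIs and 158 to 115 in mature mTEC-like cells, and 19 to 49 and 47 to 103 in fibroblast-like cells. Against Prss16, Psmb11 and the chemokine gene Ccl25 summed, no excess was seen: mature mTEC-like cells had 38.6 (30.9 to 47.7) and 36.7 (31.2 to 42.9) Cd83 UMIs per 1000 of these transcripts at 16 weeks, and fibroblast-like cells 36.2 (21.8 to 56.5) and 36.7 (26.9 to 48.8). Ccl25 made up most of that sum in mature mTEC-like cells (1977 and 3692 UMIs, beside 210 and 495 of Prss16) and less of it in fibroblast-like cells (302 and 746, beside 174 and 433). Whether the Cd83 of mature mTEC-like cells exceeded free RNA therefore depended on the reference transcript. At 2000 UMIs, 1.63 and 4.68% of them had a Cd83 UMI, against 0.373 and 0.965% of fibroblast-like cells.

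**Figure D2:**
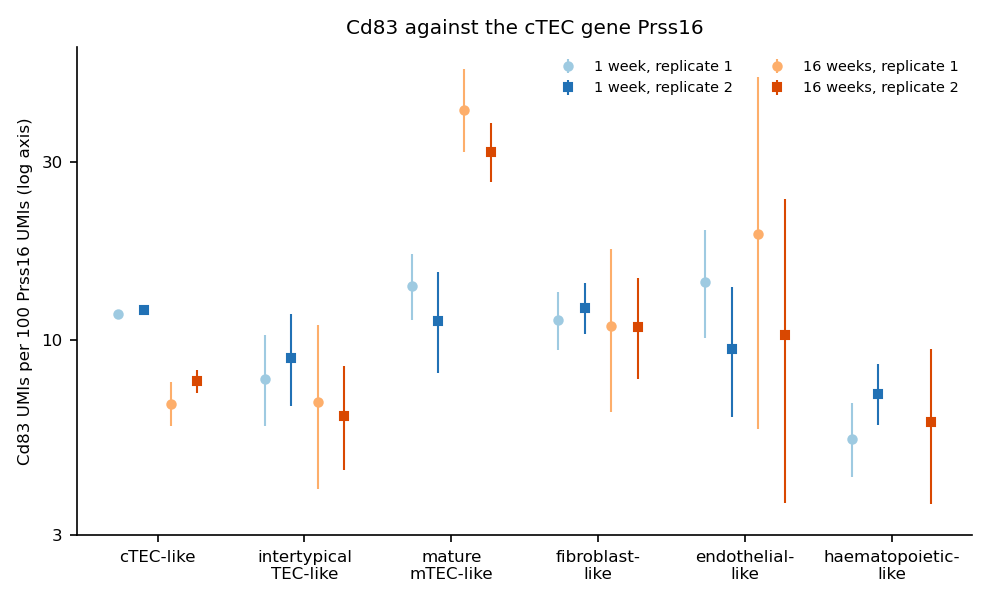
Cd83 UMIs per 100 Prss16 UMIs (log axis) summed over the cells of a class in each library, with exact 95% intervals. Mature mTEC-like cells of 16 weeks, at 41.4 and 31.9, lie above fibroblast-like cells of the same libraries at 10.9 and 10.9, a gap not seen when Ccl25 was added to the reference.

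Genes whose RNA was most like that of the 2 members were ranked over 22 units of cluster or class and library and 14348 genes, as a description. Nearest to Cd40 were Relb (Spearman 0.942), the non-canonical NF-κB subunit, Birc2 (0.925), the ubiquitin ligase cIAP1 that acts at TRAF complexes, the histone demethylase Kdm1b (0.919), the proteasome activator subunit Psme2 (0.912), and Nfkbid (0.905), a nuclear inhibitor-of-κB protein. Nearest to Cd83 were Gm14207 (0.960), Smap1 (0.949), Pkhd1l1 (0.941), the organic anion transporter Slc22a7 (0.936), and, at the same rank, the mitochondrial carrier Slc25a13 and the small GTPase Arf4 (0.934). The units share pools, classes and free RNA. Between Cd40 and Cd83 the coefficient was 0.284.

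The CD40 protein did not keep the order of its RNA under every scaling of the tags. With each tag divided by the total tag count of its cell, brought to the mean total of all cells and written as log2 after adding 1, mature mTEC-like cells had CD40 levels of 5.03 and 5.24 at 1 week and 3.804 and 3.83 at 16 weeks. Intertypical TEC-like cells had 5.71, 5.61, 3.86 and 3.70, and cTEC-like cells had 4.84, 4.79, 3.63 and 3.44. On this scale mature mTEC-like minus intertypical TEC-like cells gave -0.24 ± 0.35 (log2, SD, n = 4 libraries), with 3 of 4 libraries negative. Under the centred log ratio, in which each tag is set against the mean log of the 27 tags of its cell, the same difference was 1.05 ± 0.52 and positive in all 4 libraries. It was 1.16 ± 0.52 when MHCII and UEA1 were left out of the total, and 1.22 ± 0.53 as the log2 ratio of mean raw counts. The total tag count moved with the class: at a median of 15680, 18432.5, 13829.5 and 9583 counts it was higher in mature mTEC-like cells than in cTEC-like cells (4220, 4874, 2868 and 2770 counts) in each library.

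The same held, without a change of sign, for cTEC-like minus mature mTEC-like cells. The CD40 difference was -0.30 ± 0.14 on the total-count scale, -1.67 ± 0.14 under the centred log ratio, -1.57 ± 0.21 without MHCII and UEA1, and -1.45 ± 0.22 for mean raw counts, each with 4 of 4 libraries negative. By mean raw count a mature mTEC-like cell carried 143 and 184 CD40 counts at 1 week and 62.2 and 41.0 at 16 weeks. A cTEC-like cell carried 54.0, 65.1, 18.9 and 18.1, and a fibroblast-like cell 5.87, 9.05, 2.42 and 1.44. Mature mTEC-like cells thus had 24.3, 20.4, 25.6 and 28.5 times as many CD40 counts as fibroblast-like cells. As a share of the tag total the classes were hardly apart at 1 week, since mature mTEC-like cells had 90.2 and 96.4 CD40 counts per 10000 tags and fibroblast-like cells, whose median total was 189 and 198 counts, had 83.1 and 108. The proliferating cluster 10 had more CD40 counts per cell than cluster 1 in each library (234, 225, 90.5 and 59.1), with a log2 ratio of 0.52 ± 0.18 (SD, n = 4 libraries). On the scaled tags the difference was 0.65 ± 0.50 by total count, 0.45 ± 0.34 by centred log ratio and 0.20 ± 0.39 without MHCII and UEA1, each with values of both signs among the libraries, as for its Cd40 RNA (-0.05 ± 0.40).

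**Figure D3:**
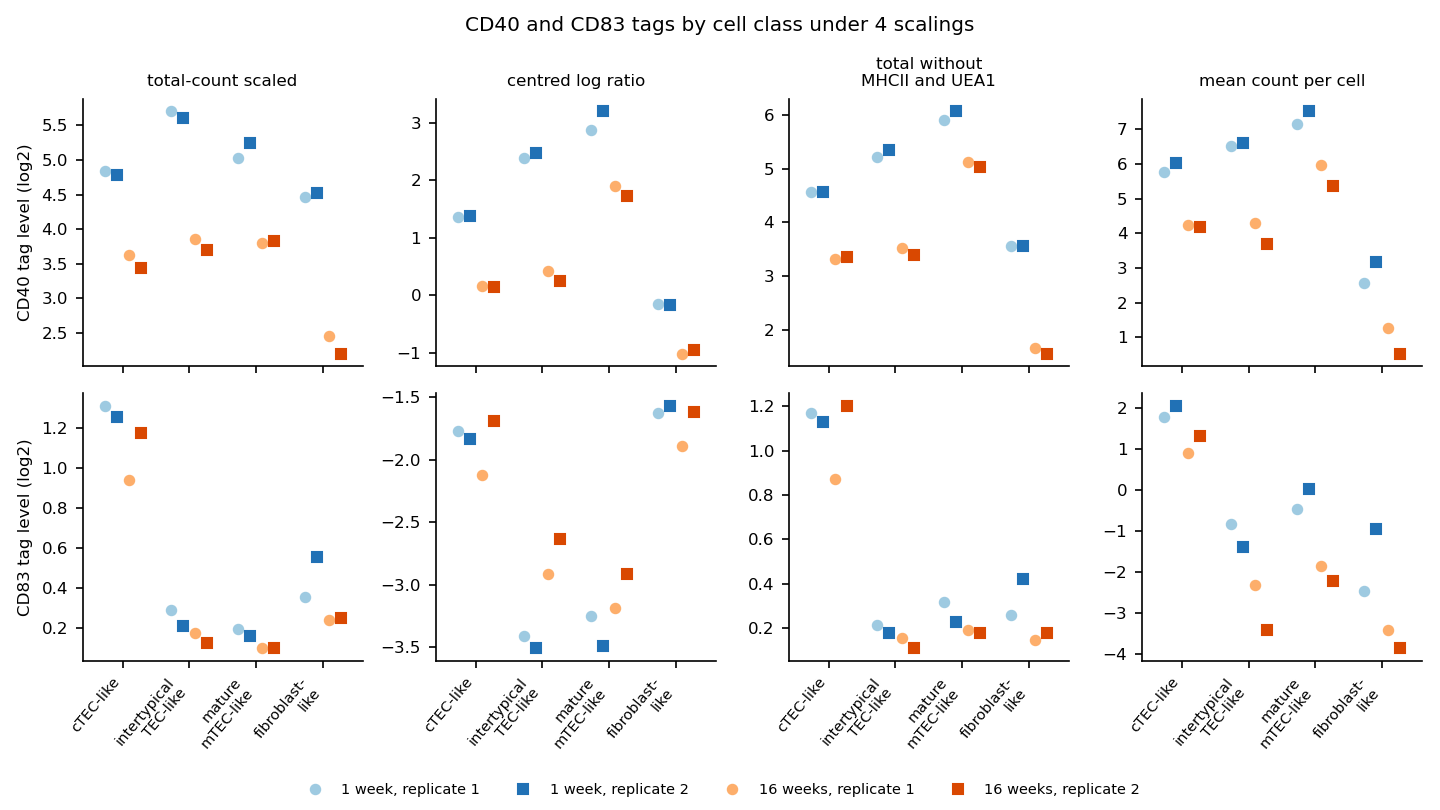
Levels of the CD40 (upper row) and CD83 (lower row) tags in log2 by cell class, under the 3 scalings of the tag counts and as the log2 of the mean raw count per cell. Points are libraries. Intertypical TEC-like cells have the highest CD40 at 1 week on the total-count scale and mature mTEC-like cells under the other 3, and CD83 of fibroblast-like cells reaches that of cTEC-like cells under the centred log ratio alone.

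CD83 protein separated cTEC-like cells from the other epithelial classes on all scales used. On the total-count scale cTEC-like cells had CD83 levels of 1.31, 1.26, 0.94 and 1.18, against 0.19, 0.16, 0.10 and 0.10 on mature mTEC-like cells. cTEC-like minus mature mTEC-like cells gave 1.03 ± 0.13 (log2, SD, n = 4 libraries) on this scale, 1.36 ± 0.26 under the centred log ratio, 0.86 ± 0.14 without MHCII and UEA1 and 2.64 ± 0.68 for mean raw counts, with 4 of 4 libraries positive each time. The counts behind these values were low, at 3.45, 4.20, 1.89 and 2.51 CD83 counts per cTEC-like cell, and the 1 added before the log flattens such values. The centred log ratio had a further effect at low totals. Fibroblast-like cells, with 0.184, 0.525, 0.0951 and 0.0691 CD83 counts per cell, had centred log ratios of -1.63, -1.57, -1.89 and -1.62, in the range of cTEC-like cells (-1.78, -1.84, -2.13 and -1.69).

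At a matched number of tags the picture was plainer. With each cell thinned to 1000 tags and shallower cells left out, 40.5, 38.6, 32.7 and 38.8% of cTEC-like cells had a CD83 tag (859, 607, 49 and 103 cells). The shares were 3.95, 8.47, 2.05 and 2.53% of mature mTEC-like cells and 3.23, 2.50, 4.60 and 3.77% of intertypical TEC-like cells. Fibroblast-like cells gave 18.2% (4 of 22 cells, exact 95% binomial interval 5.19 to 40.3) in replicate 1 of 1 week, and 7.29 and 7.09% at 16 weeks. Only 22 of 196, 96 of 536 and 127 of 1244 fibroblast-like cells reached 1000 tags, so that these are the cells with the most tags of their class. Where fibroblast-like cells gave a value, shares in the mature mTEC-like and intertypical TEC-like classes lay under it and are not read as expression. By mean raw count per cell the order was the other way for mature mTEC-like cells, with 3.98, 1.97, 2.95 and 3.11 times the CD83 counts of fibroblast-like cells, beside a higher tag total. Intertypical TEC-like cells had 3.09, 0.735, 2.14 and 1.37 times, which is below fibroblast-like cells in replicate 2 of 1 week. Of the TEC outside the cTEC class, the proliferating cluster 14 had a CD83 tag on 28.6% (17.3 to 42.2) and 11.6% (3.89 to 25.1) of 56 and 43 cells at 1 week. Tuft-like cells had 7.5% (3 of 40 cells, 1.57 to 20.4) and 10.4% (7 of 67 cells, 4.30 to 20.3) at 16 weeks, with intervals that overlapped those of fibroblast-like cells. The unnamed cluster 2, led by Scn1a, Gas1 and Fmod and with 5 markers of intertypical TEC, had 18.4% (12.04 to 26.3) and 17.2% (12.6 to 22.5) of 125 and 239 cells with a CD83 tag at 16 weeks. Its intervals lay above those of mature mTEC-like and intertypical TEC-like cells in both wells and overlapped with those of fibroblast-like cells (2.98 to 14.4 and 3.29 to 13.03).

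Among the cTEC clusters of 1 week RNA and protein ranked alike except in cluster 6. At 1000 tags 53.8 and 59.5% of cluster 5 cells had a CD83 tag at 1 week, followed by 48.8 and 43.8% in cluster 4 and 23.9 and 23.1% in cluster 8. Cluster 6 had 22.4 and 18.1%, and its CD83 tag minus that of cluster 8 was -0.38 ± 0.01 (log2, SD, n = 2 libraries) on the total-count scale. Cd83 RNA of cluster 6 was higher than that of cluster 8 by 1.46 ± 0.09 on the log2 scale in the same libraries. The order of the tag turned under the centred log ratio, to 0.33 ± 0.07. The CD40 tag of cluster 6 was above that of cluster 8 under each scaling (0.82 ± 0.08 by total count, 0.67 ± 0.16 by centred log ratio), as was its Cd40 RNA (0.90 ± 0.21). Cluster 6 cells had a median of 1815 and 1156 tags at 1 week, against 4232.5 and 4416 in cluster 8, and 147 and 105 of its 265 and 197 cells reached 1000 tags. In replicate 2 of 16 weeks the shares with a CD83 tag were 46.8% (32.1 to 61.9) in cluster 4 and 34.1% (20.1 to 50.6) in cluster 5, with overlapping intervals, while Cd83 RNA was 242 and 493 CPM.

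Cell by cell, a UMI of Cd83 in cTEC-like cells and of Cd40 in mature mTEC-like cells went with more of the tag. cTEC-like cells with a Cd83 UMI at 2000 UMIs had more CD83 tag than those without by 0.46, 0.45, 0.16 and 0.60 (log2, total-count scale; mean 0.42). Under the centred log ratio the differences were 0.56, 0.55, 0.32 and 0.71. Mature mTEC-like cells with a Cd40 UMI had more CD40 tag by 0.49, 0.47, 0.26 and 0.46 (mean 0.42), and 0.58, 0.67, 0.31 and 0.44 under the centred log ratio. All of these were positive in 4 of 4 libraries. Spearman coefficients over cells were small, between 0.09 and 0.26 for Cd83 in cTEC-like cells and between 0.09 and 0.29 for Cd40 in mature mTEC-like cells on the total-count scale. Before thinning, cTEC-like cells with a Cd83 UMI were also the deeper ones (median 10788 against 5811 UMIs in replicate 1 of 1 week), and within cluster 5 (35203 against 26456.5 UMIs in the same library) the CD83 difference was 0.25, 0.17 and 0.54 in the 3 libraries with enough cells. Cd40 in cTEC-like cells, with few positive cells, gave 0.09, 0.19 and 0.09. Within clusters of 1 week the Cd40 difference had both signs: 0.21 and 0.03 in cluster 4, -0.05 and -0.07 in cluster 5, -0.30 and 0.13 in cluster 6. It was -0.06 in cluster 8 of replicate 1, and 0.52 and -0.15 in cluster 10 at 16 weeks.

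On cTEC-like cells the 2 proteins occurred together. With cells split at the median CD40 tag of 1000, CD83 was found on 49.8 and 47.8% of CD40-high cells and on 32.2 and 29.9% of CD40-low cells at 1 week. At 16 weeks the shares were 44.4 and 42.6% against 25.8 and 35.7%. The log2 odds ratio was 1.06, 1.09, 1.16 and 0.41, positive in 4 of 4 libraries. Within cluster 5 it was 0.22, 0.20 and 0.70, within cluster 4 it was 1.31, 0.86 and 0.05, and within cluster 8 it was 0.29 and -0.55, and within cluster 6 it was 1.11 and 0.48. It lay above that of the whole class in the same library in clusters 4 and 6 of replicate 1 of 1 week and in cluster 5 of replicate 2 of 16 weeks, and below it in the other pairs of cluster and library. By RNA, 3.95, 3.87, 0 and 3.47% of cTEC-like cells had a UMI of both genes at 2000 UMIs, against 3.70, 3.15, 0.757 and 2.92% given by the product of their shares. Of the other tags, CD274 (PD-L1) and CD270 (HVEM) went with CD40 on cTEC-like cells at 1 week, with Spearman coefficients of 0.52 and 0.55 for CD274 and 0.50 and 0.53 for CD270 over 859 and 607 cells. On mature mTEC-like cells CD54 (ICAM-1) went with CD40 (0.36, 0.46, 0.42 and 0.35) and MHCII went against it (-0.28, -0.14, -0.36 and -0.33). Tags of a cell thinned to a fixed total compete for it, which bears most on a tag as abundant as MHCII.

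**Figure D4:**
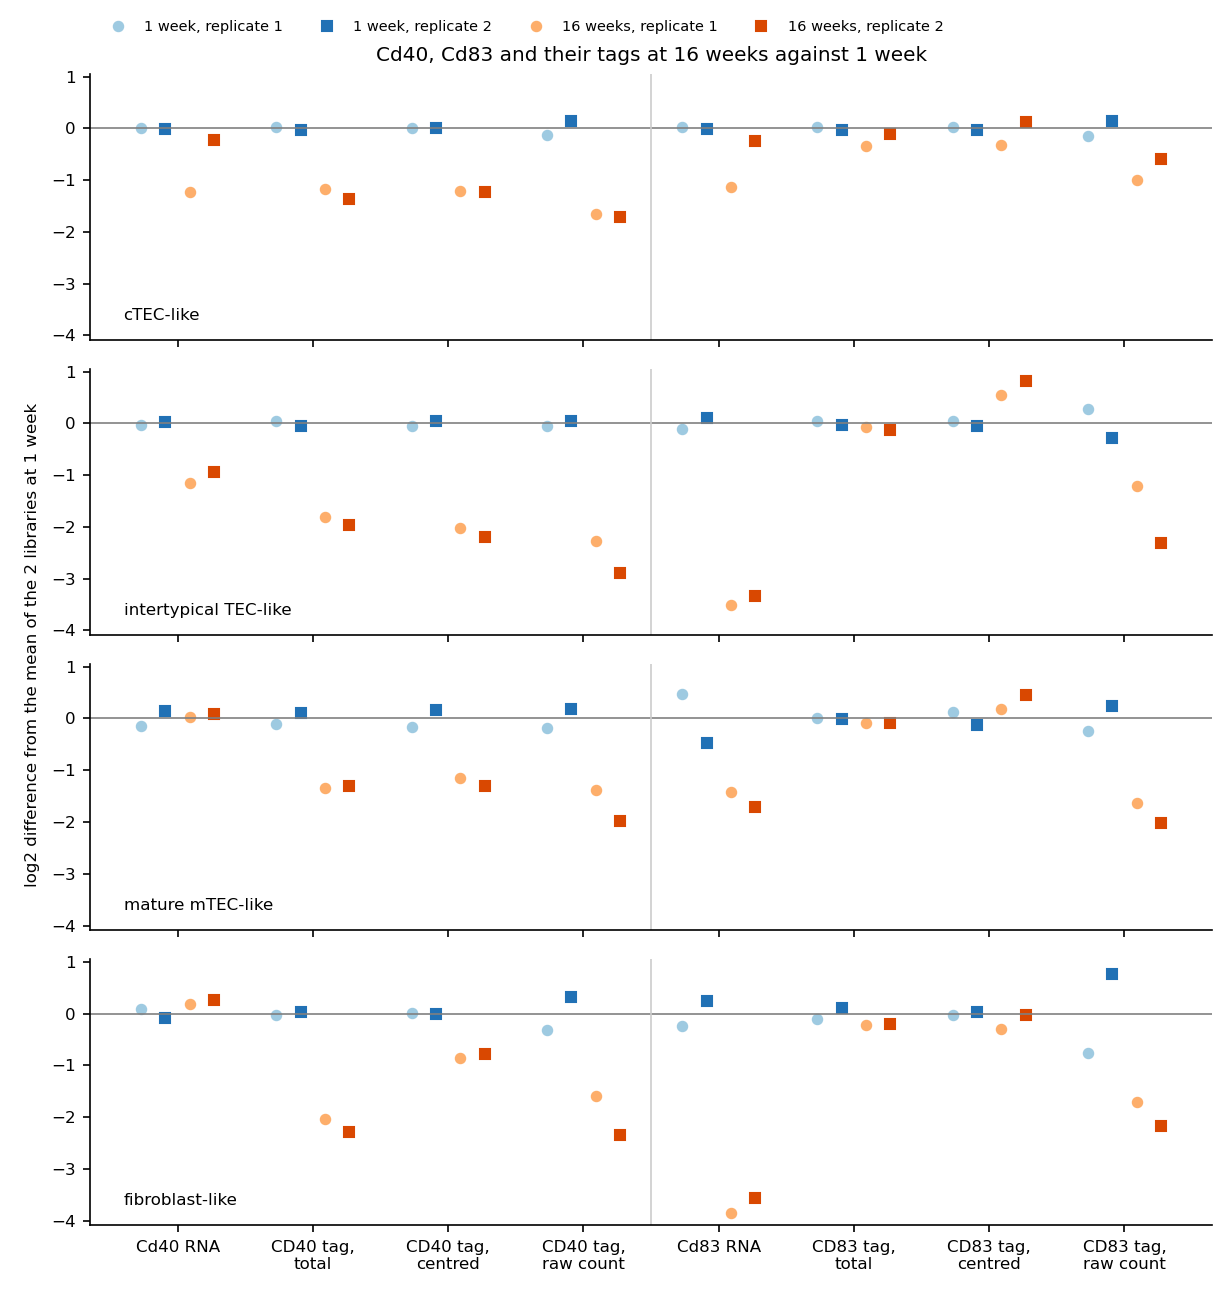
Level of each library minus the mean of the 2 libraries of 1 week, in log2, for Cd40 and Cd83 RNA and their tags by 3 scales (total count, centred log ratio, mean raw count) in 4 cell classes. On mature mTEC-like and fibroblast-like cells the CD40 tag of 16 weeks lies below 1 week on each scale (-1.32 and -2.16 by total count) while Cd40 RNA does not (0.05 and 0.23). Fibroblast-like cells of 1 and 16 weeks come from different clusters.

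Between the pools of 1 and 16 weeks, the CD40 tag was lower in each class, fibroblast-like cells among them, while Cd40 RNA was not lower in all of them. In mature mTEC-like cells Cd40 RNA differed by 0.05 (log2, 16 weeks minus 1 week) and the wells of the ages overlapped. The CD40 tag of these cells differed by -1.32 on the total-count scale, -1.23 under the centred log ratio, -0.91 without MHCII and UEA1 and -1.68 in mean raw counts, against a largest gap of 0.60 between wells of an age. In mean raw counts it ranked 5 from the lowest of the 27 tags on these cells, with CD63 at -2.18, Epcam at -1.59 and MHCII at 0.18. On cTEC-like cells the CD40 tag differed by -1.28 and Cd40 RNA by -0.72, with a gap of 1.01 between wells for the RNA. On intertypical TEC-like cells the values were -1.88 and -1.05, but different clusters make up this class at the 2 ages: cluster 12 held 79 of 95 and 73 of 83 of its cells at 1 week and 4 of 452 and 13 of 1085 at 16 weeks, where clusters 3, 7 and 9 held the rest. Age and cluster cannot be told apart there. Fibroblast-like cells of the 2 ages also fell in different clusters of all cells, with 1 cell of 16 weeks in those of 1 week. Age and cluster cannot be told apart in them either. Their Cd40 RNA differed by 0.23 and their CD40 tag by -1.97 in mean raw counts, the lowest of the 27 tags on these cells. The part of this shift in that on TEC was not tested. Relative to fibroblast-like cells of the same library, CD40 counts of mature mTEC-like cells were 24.3 and 20.4 times as high at 1 week and 25.6 and 28.5 times as high at 16 weeks.

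Cd83 RNA of cTEC-like cells differed by -0.68 between the ages (log2), with replicate 1 of 16 weeks (65 cells) at 200 CPM and replicate 2 (144 cells) at 370 CPM, and the difference was -0.24 without replicate 1 and -1.13 without replicate 2 of that age. The CD83 tag of these cells differed by -0.23 on the total-count scale and by -0.10 under the centred log ratio, where the ages overlapped. The share of cTEC-like cells with a CD83 tag at 1000 tags was 40.5 and 38.6% at 1 week and 32.7% (95% interval 19.9 to 47.5) and 38.8% (29.4 to 48.9) at 16 weeks, a difference that these cell numbers cannot show. Over all TEC, by contrast, 33.2 and 30.1% were CD83-positive at 1 week and 7.14 and 6.51% at 16 weeks, as cTEC-like cells made up 1039 of 1310 and 724 of 951 TEC at 1 week and 65 of 1141 and 144 of 2832 at 16 weeks.

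Tag-high and tag-low cells of the same class were then compared for all genes, with cells split on the tags alone. Cells above the 67th and below the 33rd percentile of the tag, ranked within class and library, were summed per pool, and edgeR's quasi-likelihood test was run with pool and class as the block over 2 pools. The classes shared an estimate of the spread, and the 2 pools are the 2 ages. The p-values thus measure how the tag difference varied between sums of 2 pools, taken over all classes. They do not measure the spread of a single class or between animals. For CD83, where most cells outside the cTEC class have no count, the low group is in effect that of cells without a count. The high group is there in effect that of cells with a count (206 against 857 cells in the mature mTEC-like class), and CD83 shares in that class were not read as expression above.

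Cd40 RNA was higher in CD40-high cells of the cTEC-like class (log2 1.65, SE 0.20, edgeR adjusted p = 0.00264; 1.59 and 1.71 in the pools of 1 and 16 weeks) and of the mature mTEC-like class (1.40, SE 0.18, edgeR adjusted p = 0.00681; 1.31 and 1.45). In the intertypical TEC-like class the difference was 0.95 (SE 0.21; 1.03 and 0.88 in the pools), with an unadjusted p of 0.000647 by edgeR and an adjusted p of 1. Cd83 RNA was higher in CD83-high cTEC-like cells by 2.19 (SE 0.28, edgeR adjusted p = 0.00085; 2.12 and 2.27 in the pools). On mature mTEC-like cells the Cd83 difference was 0.93 (SE 0.33, edgeR adjusted p = 0.819) and the pools gave -0.13 at 1 week and 1.79 at 16 weeks. It passed in 1 of 13 alternatives, that without a filter on low counts (0.90, edgeR adjusted p = 0.0063), and was 0.52 without replicate 2 of 16 weeks.

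Each tag also went with the RNA of the other gene in the cortex. Cd83 was higher in CD40-high cTEC-like cells by 1.48 (SE 0.30, edgeR adjusted p = 0.0359; 1.97 and 0.90 in the pools of 1 and 16 weeks). With other scalings of the tag this difference was 2.29 by centred log ratio and 2.22 without MHCII and UEA1. Cd40 was higher in CD83-high cTEC-like cells by 1.29 (SE 0.20, edgeR adjusted p = 0.00305; 1.40 by centred log ratio), a call that was lost without replicate 2 of 16 weeks (0.91, edgeR adjusted p = 0.0594). In mature mTEC-like cells the cross differences were 0.58 (SE 0.36, edgeR adjusted p = 0.634) for Cd83 and 0.10 (SE 0.17, edgeR adjusted p = 1) for Cd40. CD40-high cTEC-like cells of 1 week came from cluster 5 to 48.1%, against 3.61% of CD40-low cells, and for CD83 the shares were 45.4 and 9.42%. The groups also differed in depth, with medians of 12117 and 3694 UMIs for CD83 and 10582 and 5471 UMIs for CD40. With cells ranked within each cluster instead, all 4 cTEC differences kept their sign and none passed the threshold: Cd40 in the CD40 split was 1.03 (edgeR adjusted p = 0.169), Cd83 in the CD83 split 1.29 (0.0872), Cd83 in the CD40 split 0.65 (0.82) and Cd40 in the CD83 split 0.64 (0.32).

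**Figure D5:**
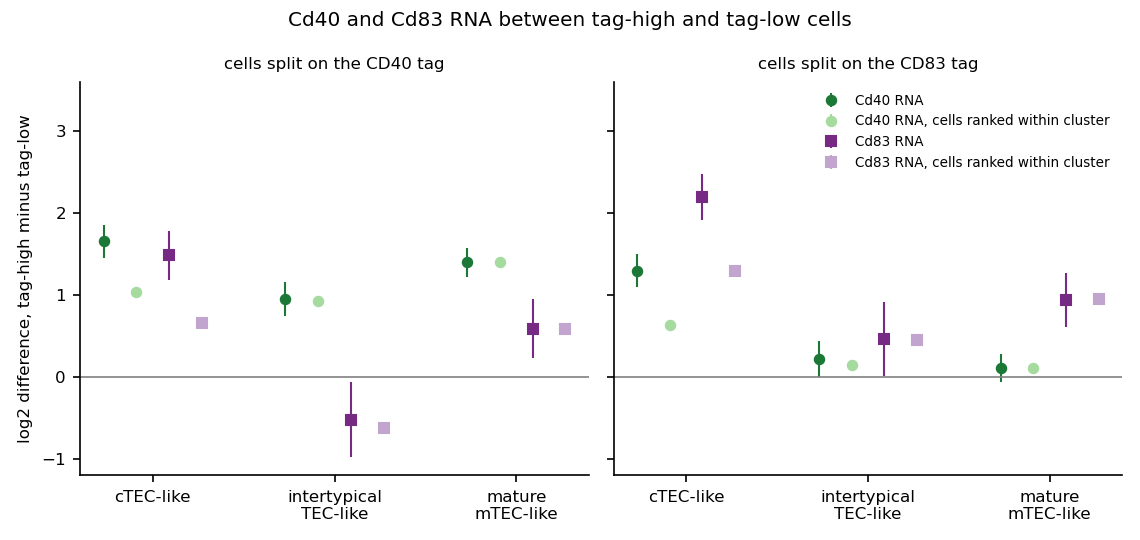
Log2 difference of Cd40 (circles) and Cd83 (squares) RNA between tag-high and tag-low cells of 3 classes, for cells split on the CD40 tag (left) and the CD83 tag (right). Bars on the dark points are standard errors from edgeR, and pale points, without error bars, are the values with cells ranked within clusters. In cTEC-like cells both genes are higher on the high side of both tags, and in mature mTEC-like cells Cd40 is higher on the high side of CD40.

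Over all genes, the CD40 split gave 198 of 14738 genes in cTEC-like cells (1.34%), 143 higher and 55 lower in CD40-high cells (0.970 and 0.373%), and 76 (0.516%) in mature mTEC-like cells, 51 higher and 25 lower (0.346 and 0.170%). In intertypical TEC-like cells edgeR called 0 genes (0%), with 392 at an unadjusted p under 0.05 and 0 by DESeq2. The CD83 split gave 755 of 13617 genes in cTEC-like cells (5.54%), 468 higher and 287 lower (3.44 and 2.11%), 9 (0.0661%) in mature mTEC-like cells, 7 higher and 2 lower (0.0514 and 0.0147%), and 0 (0%) in intertypical TEC-like cells by edgeR, where 284 had an unadjusted p under 0.05 and DESeq2 called 0. Ranking within clusters left 2 and 22 genes in cTEC-like cells for CD40 and CD83. With the replicate as a block and sums per library, the counts were 1177 and 1540 in cTEC-like cells and 429 and 1 in mature mTEC-like cells. Leaving out 1 library at a time moved several counts by over 1.5 times. Without replicate 1 of 1 week there were 330 genes for CD83 and 127 for CD40 in cTEC-like cells and 45 for CD40 in mature mTEC-like cells. Without replicate 2 of 1 week these were 419, 396 and 295, and without replicate 2 of 16 weeks 481, 192 and 147. For CD83 in mature mTEC-like cells, 18 and 22 genes were called without replicate 1 or 2 of 16 weeks.

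The genes with the largest differences in cTEC-like cells were shared in part by the 2 tags. Fxyd2, a regulatory subunit of the sodium-potassium ATPase, was higher by 3.54 (SE 0.20, edgeR adjusted p = 8.78e-06) in CD40-high and by 2.85 (SE 0.24, edgeR adjusted p = 6.52e-05) in CD83-high cells. Lrrc3b was higher with both tags (3.30 and 2.97), on 118 UMIs against 8 and 129 against 8, and passed in 5 of 12 and 4 of 7 alternatives. Chga, which encodes the granule protein chromogranin A, was lower with both (-4.11 and -4.89), with 78.0 and 67.4% of the Chga UMIs of these groups in 1 cell, and gave -4.56 and -5.45 in the pool of 1 week against -0.73 and -0.60 in that of 16 weeks. Fxyd2 and Chga were also called with cells ranked within clusters, for both tags, and Chga was not called by DESeq2 in the CD83 split (adjusted p = 0.129). With CD40 alone among the first 5, Dync1i1 (3.27), Myo5c (3.23) and Gm29481 (3.10) were higher, and Cldn8, Fhod3, Prune2 and 1700023F06Rik were lower (-3.37 to -2.63). Leaving out cells with 3 or more thymocyte UMIs took out 68.5 and 63.2% of cluster 5 at 1 week, against 17.7 and 15.2% of the shallow cluster 6. Without cells with thymocyte UMIs Dync1i1, Myo5c and Gm29481 were still called (edgeR adjusted p = 0.00189 to 0.0244), while Lrrc3b, Cldn8, Fhod3, Prune2 and 1700023F06Rik were not (0.0843 to 0.458), and none of the 8 passed with cells ranked within clusters (0.684 to 1). With CD83, Gm37248 (4.36, from 91 UMIs against 2), Amn (3.42), a partner of cubilin in endocytosis, and the methyltransferase Inmt (2.97) were higher. Rhcg, Ckm, Pth and Fbxo2 were lower (-3.90 to -3.43, Rhcg with 3 UMIs in CD83-high cells), and 74.0% of the UMIs of Pth, the parathyroid hormone gene that is among the leading genes of cluster 6, came from 1 cell. Without cells with thymocyte UMIs the calls of Rhcg (edgeR adjusted p = 0.234), Pth (0.0768) and Amn (0.0640) were lost. Within clusters Inmt passed (0.00558), and Amn, Fbxo2, Pth, Ckm and Rhcg did not (0.0773 to 0.491).

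In mature mTEC-like cells, which express tissue-restricted genes in few cells each, the largest differences rested on few cells. CD40-high cells had more Cartpt (5.36), Cym (4.53), Klhl23 (4.41), Rbp4 (4.38) and Gm8773 (4.20), and less Pck1 (-4.07), Lce3b (-3.33), Nppa (-3.25), Spink4 (-3.20) and Dapl1 (-2.80). Between 34.9 and 80.3% of the UMIs of each of these genes came from 1 cell. The calls of Pck1, Lce3b and Nppa were lost without cells with thymocyte UMIs (edgeR adjusted p = 0.1901, 0.862 and 0.523), and those of Lce3b, Cym and Klhl23 by centred log ratio (0.804, 0.113 and 0.0547). CD83-high cells had more Gm7861 (6.46, 89.8% of its UMIs in 1 cell), Mcpt4 (4.68, 44.3%), Pgc (2.26, 41.4%), Cck (1.74, 20.1%) and Ccl22 (1.63, 17.8%), a chemokine that attracts CCR4+ T cells and that mature mTEC produce. Sct, which encodes secretin, and Apoa4 were lower (-1.78 and -1.57). The calls of Apoa4 and Cck were lost without cells with thymocyte UMIs (edgeR adjusted p = 1 and 0.119) and under DESeq2 (adjusted p = 0.365 and 0.487), and that of Gm7861 under DESeq2 (0.111). For Ccl22 the difference was 1.70 and 1.56 in the pools (SE 0.18, edgeR adjusted p = 0.00159), with 25 of 206 CD83-high and 95 of 857 CD83-low cells holding its UMIs.

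Genes of CD40 signalling were not called in the comparison as set out above, and up to 3 were called in cTEC-like cells under some of its alternatives. Of the 23 genes of the list (TRAF adaptors, NF-κB subunits, their kinases and inhibitors, and the sister receptors), 0 were called by edgeR and 0 by DESeq2 in each class for either tag, beside 1.34% of all genes for CD40 and 5.54% for CD83 in cTEC-like cells and under 1% in the other classes. At shares of that size 0 of 23 is not read as a result about the list. At an unadjusted p under 0.05 there were 2 and 1 of the 23 in intertypical TEC-like cells for CD40 and CD83, beside 392 of 14738 and 284 of 13617 genes. In mature mTEC-like cells there were 1 and 1, beside 1617 of 14738 and 651 of 13617 genes. In the CD40 split of cTEC-like cells 6 of the 23 had an unadjusted p under 0.05, beside 1971 of 14738 genes. The median of the 23 was 0.28 beside -0.01 over all genes. Tnfaip3, the NF-κB-induced inhibitor A20, came nearest (0.97, SE 0.22, edgeR adjusted p = 0.0544), followed by Nfkbie (0.78), Birc3 (0.49) and Nfkb1 (-0.36). With the tags scaled by centred log ratio Tnfaip3, Nfkbie and Nfkb2 passed in the CD40 split (edgeR adjusted p = 0.0180, 0.0405 and 0.0472) and Tnfaip3 in the CD83 split (0.0346), and Tnfaip3 passed for both without MHCII and UEA1 (0.0324 and 0.0341). On the total-count scale Tnfaip3 (0.00342 and 0.0133) passed for both tags with sums per library and the replicate as a block, as did Nfkbie (0.00752) and Birc3 (0.0196) for CD40 and Tnfrsf11a, the receptor RANK (-0.82, 0.0470), for CD83. Tnfaip3 and Nfkbie passed for CD40 without a filter on low counts (0.0118 and 0.0456). Over all genes of cTEC-like cells the centred log ratio called 904 of 15141 for CD40 and 951 of 13782 for CD83. Without MHCII and UEA1 there were 681 of 15397 and 933 of 13711, and with the replicate as a block 1177 of 11436 and 1540 of 10643. No filter on low counts gave 655 of 32270 for CD40. In mature mTEC-like cells, in which CD40 signalling is best described, the median in the CD40 split was -0.06 beside 0.00 over all genes. In the CD83 split of cTEC-like cells, 6 of the 23 had an unadjusted p under 0.05, beside 2580 of 13617 genes, and the median of the 23 was 0.27 beside -0.01.

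Genes of MHC class II and costimulation passed in the CD83 split of cTEC-like cells, where 6 of 18 tested were higher and 1 lower, beside 5.54% of all genes called. Ctsl, the cathepsin that processes invariant chain and antigens in cTEC, was higher by 1.53 (SE 0.18, edgeR adjusted p = 0.000535). H2-Oa (0.75), Cd274 (0.70), H2-DMb2 (0.59), H2-Aa (0.42) and Cd74 (0.42), which encode class II chains, their chaperones and PD-L1, were higher with adjusted p-values from 0.0243 to 0.0489 by edgeR. By centred log ratio Cd74 and H2-Aa were not called (0.0548 and 0.0613). Icosl, the ICOS ligand, was lower (-1.12). None of the 7 was called with cells ranked within clusters, and DESeq2 called 5 of the list. With cells split at the median Ctsl alone was called, and with the size factors of DESeq2 in edgeR 4 were. Leaving out 1 library at a time left 1 to 4 of the list called, with 1 without replicate 1 of 1 week, 2 without replicate 2 of 1 week or replicate 1 of 16 weeks, and 4 without replicate 2 of 16 weeks. Without cells with 3 or more thymocyte UMIs Ctsl was called (edgeR adjusted p = 0.00304) and the other 6 were not (0.147 to 0.665). March8 itself differed by 0.44 (SE 0.22, edgeR adjusted p = 0.317). In the CD40 split, on the total-count scale, Ctsl was called (1.07, SE 0.20, edgeR adjusted p = 0.0305) as 1 of the 18 in cTEC-like cells, beside 1.34% of all genes. Ctsl gave 1.44 and 0.70 in the pools of 1 and 16 weeks and was not called with cells ranked within clusters (edgeR adjusted p = 0.643). By centred log ratio H2-Oa, H2-DMb2, Cd274 and March8 passed too (edgeR adjusted p = 0.0105, 0.0167, 0.0441 and 0.0443), beside 904 of 15141 genes called. In the other classes 0 were called for either tag in the comparison as set out, with 2 and 1 at an unadjusted p under 0.05 in mature mTEC-like cells for CD40 and CD83 (DESeq2 called 1 and 0) and 3 and 0 in intertypical TEC-like cells (DESeq2 called 0 and 0). Over all genes 1617 of 14738 and 651 of 13617 had an unadjusted p under 0.05 in mature mTEC-like cells, and 392 and 284 in intertypical TEC-like cells. H2-DMb2 was higher in CD40-high mature mTEC-like cells by 0.62 (SE 0.16, edgeR adjusted p = 0.138) and passed under 4 of 13 alternatives: ranked within clusters (0.0290), with the replicate as a block (0.0231), without a filter on low counts (0.0213) and by DESeq2 (0.0440). Cluster 1 is the whole of this class, so that ranking within clusters left its sums as they were. What changed was what the fit shares with the other classes, such as the genes kept, the scaling and the spread, and their parts were not tested. Icosl passed there by centred log ratio (0.0479), and Ctsl passed for CD83 without a filter on low counts (0.0105).

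Thymocyte genes lay higher with both tags in cTEC-like cells (11 of 11 tested for CD40 and 10 of 10 for CD83), but 1 and 4 of them were called. Their median was 1.44 and 1.51, beside -0.01 over all genes for each tag. Of the thymocyte list, Trbc1, Trbc2, Cd3d and Rag1 (4 of 10 tested) were higher in CD83-high cells, by 1.71, 1.41, 1.63 and 2.54, and Trbc1 (1 of 11 tested; 1.67) in CD40-high cells, beside 5.54 and 1.34% of all genes. By centred log ratio 6 of 11 were called for each tag, in the CD40 split Trbc1, Trbc2, Rag1, Cd8a, Cd3d and Cd8b1 (edgeR adjusted p = 5.50e-05 to 0.00502), and without MHCII and UEA1 there were 7 for CD40 and 6 for CD83. Over all genes the centred log ratio called 904 of 15141 for CD40 and 951 of 13782 for CD83, and the total without MHCII and UEA1 681 of 15397 and 933 of 13711. Without replicate 2 of 16 weeks 0 were called by edgeR for either tag. At an unadjusted p under 0.05 there were 1 for CD40 and 5 for CD83 in that setting, beside 1326 of 11186 and 1973 of 11590 genes. Without replicate 1 of 16 weeks 8 were called for CD83 and 2 for CD40, beside 537 of 12321 and 184 of 13672 genes. DESeq2 called 2 and 1 of the list, and with cells ranked within clusters none of these passed (edgeR adjusted p = 0.0715 to 0.974 for CD83, 0.322 for Trbc1 with CD40). The summed level of the list at 1 week was 532 CPM in CD83-high and 155 CPM in CD83-low cells, and 597 against 118 CPM for CD40. At 16 weeks it was 265 against 173 CPM for CD83 and 371 against 347 CPM for CD40, and all 12 genes were detected in cTEC-like cells of each library. Without cells with 3 or more thymocyte UMIs, Cd83 was still higher in CD83-high cTEC-like cells (1.85, edgeR adjusted p = 0.0104) and Cd40 in CD40-high cells (1.69, edgeR adjusted p = 0.00376), while the number of genes called went from 755 to 116 for CD83 and from 198 to 174 for CD40. That cut left out 38.0 and 31.5% of cTEC-like cells at 1 week and 21.5 and 16.7% at 16 weeks. In cluster 5 it took out 68.5 and 63.2% at 1 week. Loss of thymocyte UMIs and loss of cells, above all of cluster 5, cannot be told apart here. Of B cell and dendritic cell genes, which could bring CD40 or CD83 of their own, 6 were tested. Fscn1, the actin-bundling protein fascin, was lower in CD40-high and CD83-high cTEC-like cells (-1.30 and -1.52), beside 1.34 and 5.54% of all genes. In the CD40 split this call was lost under DESeq2 (adjusted p = 0.0584), without replicate 2 of 1 week (-0.92, edgeR adjusted p = 0.105), without replicate 2 of 16 weeks (-1.36, 0.0663) and with cells split at the median (-0.83, 0.117), and for both tags it was lost within clusters (edgeR adjusted p = 0.732 and 0.213) and without cells with thymocyte UMIs (0.2502 and 0.0935). Ptprc, the pan-haematopoietic CD45, and Cd79b of the B cell receptor lay the other way in the CD40 split (1.86 and 2.02) with unadjusted p-values of 0.00517 and 0.00669 and adjusted p-values of 0.129 and 0.144 by edgeR, and passed under some alternatives. Ptprc passed by centred log ratio (2.40, edgeR adjusted p = 0.0180), without MHCII and UEA1 (3.61, 0.00379), with the replicate as a block (1.88, 0.0151) and without a filter on low counts (1.87, 0.0334), and Cd79b with the replicate as a block (2.02, 0.0438). In the CD40 split of mature mTEC-like cells, 0 of the 6 were called by edgeR in the comparison as set out, or by DESeq2. At an unadjusted p under 0.05 there were 3, beside 1617 of 14738 genes. The 3 were Cd79a (4.90), Ptprc (-2.66) and Fscn1 (0.55), with adjusted p-values of 0.211, 0.147 and 0.329 by edgeR. Without a filter on low counts Cd79a (4.96, edgeR adjusted p = 0.0443) and Ptprc (-2.63, 0.0222) passed, and Ptprc passed with the replicate as a block (-2.63, 0.0292). Cd79a, a chain of the B cell receptor, had 49 UMIs in 12 CD40-high cells and 1 UMI in CD40-low cells, and 56% of its UMIs in the cells compared came from 1 cell. The summed level of the list was 434 CPM in CD40-high and 244 CPM in CD40-low cells of this class at 1 week, and 301 against 276 CPM at 16 weeks, and its part in the Cd40 difference was not tested. Ms4a1, Itgax, Siglech and Clec9a were at 0 in cTEC-like cells of every library.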

How the data were processed

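RNA and antibody tags of single thymic stromal cells were sequenced as CITE-seq libraries in 2 wells for each of 2 pools of thymi (1 and 16 weeks). The authors deposited counts, not normalized: UMIs per gene and cell made with STARsolo 2.7.9a on mm10 from cells with at least 2000 UMIs, and tag counts per cell for 27 tags. The labels name a 3′ v2 kit and the study's methods a v3 kit. Barcodes of the tags are those of the tag table and gene positions come from GRCm38 (GENCODE M21).

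From these counts, the 253 cells with the highest doublet scores were left out, a number set by the usual doublet rate for the cells of each library because the caller's own cut marked 14, and clusters were made without Cd40 and Cd83 (scanpy 1.11.5, 2000 variable genes, 30 components, 10 neighbours, mutual nearest neighbours over library and depth class). Clusters were named by 3 or more detected markers, and 300 cells were dropped as belonging to epithelial clusters, in a first clustering of all cells, whose median fell short of 3000 UMIs. CPM of summed UMIs, shares after thinning to 2000 UMIs or 1000 tags, and exact 95% intervals (Poisson, or Clopper-Pearson for shares) were computed for units of 20 or more cells. Intervals cover counting error only. Tags were scaled by the total per cell with 1 added before the log2. The centred log ratio, the total without MHCII and UEA1, and raw counts were alternatives, the last of them chosen after the data were seen.

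Tag-high and tag-low cells were compared on sums per pool and class with edgeR 4.0.16 (quasi-likelihood, TMM, filterByExpr, Benjamini-Hochberg adjustment over all genes tested, threshold 0.05) in R 4.3.3, with DESeq2 1.42.0 as an alternative. On simulated counts for the CD83 comparison in cTEC-like cells (13336 genes), 51.5% of genes changed by log2 1 and 97% of those changed by log2 2 were recovered, with 5 false calls. The simulation gave all genes a common spread and the same change in both pools. Its rates may not hold for genes with most UMIs in 1 cell or with unlike differences in the pools. Wells of a pool are technical replicates, and with 1 pool per age no difference between ages was tested. Named genes were Cd40 and Cd83, the 5 per direction with the largest difference among those past the threshold with the same sign in both pools, list members past the threshold or else of the smallest p, and the 5 most alike in RNA. The members, the lists and the tests were chosen with earlier results of these data known.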

Additional observations from a re-analysis of the deposited data

Results flagged for a closer look

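The centred log ratio of CD83 on mature mTEC-like minus intertypical TEC-like cells was 0.153 and 0.0197 in the wells of 1 week and -0.272 and -0.282 in those of 16 weeks. Both wells of one age lay above 0 and both of the other below it, and the difference between the ages was not tested. Both classes had under 1.1 CD83 counts per cell in each library, and on the total-count scale all 4 values were negative (-0.0950, -0.0470, -0.0769 and -0.0279). Without MHCII and UEA1 all 4 were positive (0.101, 0.0522, 0.0373 and 0.0715), as were the log2 ratios of mean raw counts (0.362, 1.42, 0.463 and 1.18).

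Haematopoietic cells left after the depletion and the sort, which no comparison above used, carried more of both tags than fibroblast-like cells. Their mean CD40 count was 5.35 and 6.80 times that of fibroblast-like cells at 1 week and 4.56 times in replicate 2 of 16 weeks. For CD83 the ratios were 13.8, 10.2 and 9.09. Replicate 1 of 16 weeks held under 20 of these cells. At 1000 tags, 75% of 20 and 58.3% of 24 haematopoietic cells had a CD83 tag at 1 week. Only these 20 of 70 and 24 of 53 cells reached 1000 tags, at a median of 131 tags over the class, so that they are its cells with the most tags. The class also held 1508 and 1686 UMIs of the cTEC gene Prss16 at 1 week, and the part of cTEC material in its tags was not tested.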

How the results depend on the processing

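Of 242 values of 22 results under the alternatives, 175 stayed within the spread of their result, or within 1.5 times for counts, and 67 did not. CD40 on cTEC-like minus mature mTEC-like cells (-0.30) was -1.67 by centred log ratio, -1.57 without MHCII and UEA1, -1.45 in raw counts, -0.12 when Cd40 and Cd83 entered the clustering, -0.14 with doublets kept and -0.44 without cells with 3 or more thymocyte UMIs. CD40 on mature mTEC-like minus intertypical TEC-like cells (-0.24) turned to 1.05, 1.16 and 1.22 under the first 3 of these. CD83 on cTEC-like minus mature mTEC-like cells (1.03) was 1.36, 0.86 and 2.64 under them and 1.19 without cluster 6. The CD40 tag of mature mTEC-like cells between the ages (-1.32) was -0.91 without MHCII and UEA1, -1.68 in raw counts and -1.66 without batch correction, and their Cd40 RNA (0.05) was -0.28 without batch correction and -0.094 without cells with thymocyte UMIs. The CD83 tag of cTEC-like cells between the ages (-0.23) was -0.80 in raw counts, -0.48 with the members in the clustering, -0.46 without batch correction, -0.077 without cells with thymocyte UMIs and -0.40 without cluster 6. The CD83 difference of cTEC-like cells with and without a Cd83 UMI (0.42) was 0.71 without batch correction. The share of cTEC-like cells with a Cd83 UMI (36.0%) was 62.6% without thinning and 55.4% at 5000 UMIs. For Cd40 in mature mTEC-like cells (22.1%) it was 50.2%, 45.1%, 19.8% with the members in the clustering and 30.3% without batch correction.

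Counts of genes called are given for CD40 in cTEC-like (198), intertypical TEC-like (0) and mature mTEC-like cells (76) and for CD83 in the same classes (755, 0 and 9). With sums per library and the replicate block they were 1177, 5 and 429, and 1540, 0 and 1. Replicate numbers of the 2 ages belong to different pools and pair nothing, so the block pairs tag-high with tag-low cells of a library and treats wells as replicates. The centred log ratio gave 904, 7 and 277 for CD40. The total without MHCII and UEA1 gave 681 in cTEC-like cells for CD40. No filter on low counts gave 655, 34 and 487, and 1133, 2 and 161. DESeq2 gave 131, 0 and 116, and 329, 0 and 5. Ranking within clusters gave 2 and 266 for CD40 in cTEC-like and mature mTEC-like cells and 22 for CD83 in cTEC-like cells. Without cells with thymocyte UMIs 2 genes were called for CD40 in intertypical TEC-like cells and 116 for CD83 in cTEC-like cells, and splitting at the median gave 361 for the latter. Leaving out 1 library at a time gave 127 to 396, 0 to 1 and 45 to 295 for CD40, and 330 to 537, 0 to 0 and 8 to 22 for CD83. It turned the sign of the Cd40 RNA difference between ages in mature mTEC-like cells (-0.08 to 0.19). The causes were not tested. Low CD83 counts per cell, and 65 and 144 cTEC-like cells at 16 weeks, limit the depth.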
